A study of Danio rerio with 7 samples.

Results

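High-fat-fed zebrafish larvae were compared with normal-diet larvae across all genes. The comparison takes in 5 of the 7 RNA-seq libraries of the series, 2 labelled high-fat diet and 3 labelled normal diet. They were chosen by label and not by a measured value, though earlier results of these data were known. The 2 libraries left out came from larvae on the high-fat diet that also received CACF, a treatment that the labels do not spell out, at 40 µg/ml. All larvae carried a CD36 transgene, with the genotype given as CD36 overexpression, and whole larvae were taken at 15 days post fertilization (dpf). The high-fat group (HFD in the plots; fish 2 and fish 4) had received a diet given as 24% and the normal-diet group (fish 1, fish 2 and fish 4) one given as 12%, both with paramecium, from 5 dpf to 15 dpf. Larvae then stayed overnight in E3, the usual embryo medium, with no CACF in either of these groups. The labels do not say what the percentages refer to, which promoter drives the transgene, whether 1 fish number stands for 1 larva or a pool, or whether the fish came from separate clutches. The p-values below therefore measure only the spread between libraries, and every value describes larvae that overexpress CD36. The 2 CACF libraries also entered the estimate of that spread.

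CD36 is a membrane receptor that binds long-chain fatty acids and helps cells to take them up. In the gut of fish and mammals, fat is absorbed by enterocytes, rebuilt into triglyceride, and loaded by the transfer protein Mttp onto apolipoprotein B, which leaves the cell as a lipoprotein particle with apolipoproteins of the A and C families on its surface. Lipoprotein lipase frees the fatty acids again in muscle, fat and other tissues, where they are stored in lipid droplets or burned in mitochondria by beta-oxidation. Nuclear receptors of the PPAR, LXR, FXR and HNF4 groups, with coactivators such as PGC-1, adjust these genes to the fat supply.

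Values are the authors' normalized counts, given in the order high-fat fish 2 and fish 4, then normal-diet fish 1, fish 2 and fish 4. The high-fat libraries held 12699552 and 15819634 reads, and the normal-diet libraries held 22543693, 20438450 and 19289270, so the tested diet was also the shallower one. Markers of neurons, muscle, epidermis, liver, gut, pancreas and eye were detected in every library, while the globin gene hbaa1 had at most 5.1 and the neutrophil gene lyz at most 7.65 normalized counts. Other blood markers were present, with 28.9 to 80.4 for the neutrophil gene mpx and 23.0 to 61.6 for the macrophage gene mpeg1.1. The red blood cell list summed to between 5193 and 6867. In TPM, lyz had 3.39 to 9.04 and mpx 0.44 to 1.96, so the low count of lyz depended on the measure. Normal-diet fish 1 stood apart. Its median correlation with the other 6 libraries was 0.877 across genes. The high-fat libraries had 0.918 and 0.924, and normal-diet fish 2 and fish 4 had 0.928 and 0.930. Outside this comparison, the CACF library of fish 2 was lower still, at 0.858. Normal-diet fish 1 was the highest of the 5 libraries for 27.8% of the 20906 genes tested. High-fat fish 2 was so for 22.9% and normal-diet fish 2 for 20.7%. List medians and fitted fold changes are therefore given with and without normal-diet fish 1. The closest pair across diets was high-fat fish 4 and normal-diet fish 4, at 0.967, where the 2 high-fat libraries correlated at 0.928 with each other. High-fat fish 2 was also closer to normal-diet fish 2, at 0.939, than to high-fat fish 4. The main test did not pair libraries by fish number.

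No gene passed the test between the diets. Of 20906 genes, 0 (0%) had an adjusted p under 0.05 in limma whether normal-diet fish 1 was kept or left out. Among the same genes, edgeR and DESeq2 on the recovered reads also called 0. DESeq2 was fitted to every gene with a read in the 7 libraries, and its calls outside the 20906 genes were not counted. In limma the smallest adjusted p was 0.785, and 0.999 without normal-diet fish 1. Every gene named below thus differed by less than the limma test could tell from the spread between libraries. By sign alone, 9610 genes (46.0%) were higher and 11296 lower on the high-fat diet. Without normal-diet fish 1, 9430 (45.1%) were higher and 11475 lower. At an unadjusted p under 0.05, 287 genes (1.37%) were higher and 976 (4.67%) lower on the high-fat diet. Without normal-diet fish 1 the counts at that p were 195 (0.933%) and 553 (2.65%). As a description with no test, a gene was called 2-fold apart where the group means of log2 values differed by at least 1 and no high-fat library overlapped a normal-diet one; single libraries may lie closer. By this measure 255 genes (1.22%) were higher and 1266 (6.06%) lower on the high-fat diet. Without normal-diet fish 1 these numbers were 428 (2.05%) and 1186 (5.67%), and 181 of the higher and 975 of the lower genes met the description both ways. The surplus of lower genes narrowed when the libraries were brought to 1 distribution. Quantile normalization gave 527 higher and 720 lower genes, so 57.7% of the 2-fold differences were downward, against 83.2% on the authors' scale, and it moved the median log2 fold change of all genes to 0.05, against -0.05. Leaving out normal-diet fish 4 instead gave 587 higher and 2369 lower genes. The condition of no overlap is easier to meet with fewer libraries, and this holds without normal-diet fish 1 too. These counts therefore cannot show how far the 2-fold differences leaned on 1 library. At an unadjusted p under 0.05, leaving out high-fat fish 2 gave 62 higher and 527 lower genes, and normal-diet fish 4 gave 1478 lower ones.

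The lower genes were mostly weakly expressed ones. Of the 2-fold lower genes 66.2% had a mean under 50 normalized counts, and of the 2-fold higher genes 73.3%, where 32.0% of all genes tested did. When protein-coding genes were split into 10 bins of equal size by mean level, the median log2 fold change was -0.35 and -0.39 in the 2 lowest bins and 0.10 in the highest, and without normal-diet fish 1 the ends were -0.27 and 0.03. The lowest bin held 263 lower and 89 higher genes, the highest 16 lower and 4 higher. The surplus of lower genes was not confined to weak ones. With a filter of 50, 86.0% of the 2-fold differences were downward, against 83.2% in the main setting. The high-fat libraries, which were the shallower, thus sat lower where counts were few. The part of sequencing depth in this was not tested. Across 10 bins by the gene's span in the genome, the median moved less, between 0.01 and -0.13. The counts did differ with span. The bin of shortest genes held 44 higher and 116 lower genes, and the bin of longest genes 7 higher and 160 lower.

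**Figure D1:**
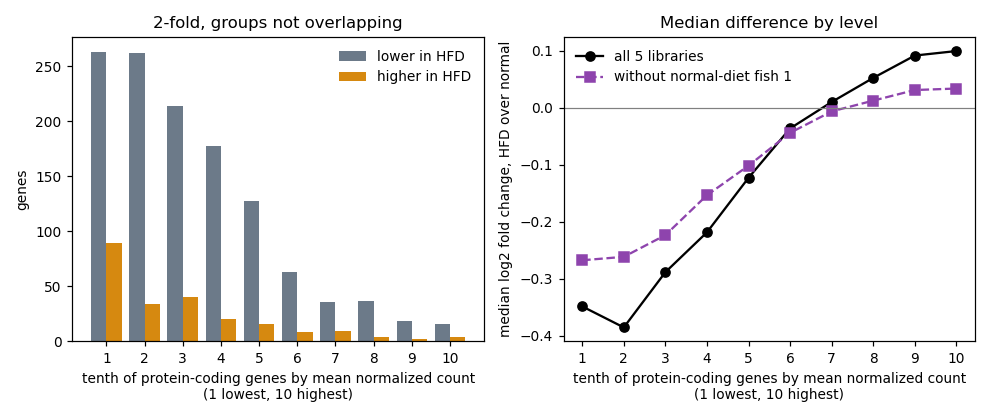
Left: number of protein-coding genes lower (grey) or higher (orange) on the high-fat diet by at least 2-fold between the group means of log2 values, with no overlap between the groups, in 10 bins of mean normalized count. Right: median log2 fold change, high-fat over normal diet, in the same bins, with all 5 libraries (circles) and without normal-diet fish 1 (squares). The count of lower genes goes from 263 in the lowest bin to 16 in the highest, and the median from -0.35 to 0.10.

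DNA replication genes were higher in high-fat larvae almost as a block. Of 52 tested members, 50 had a positive log2 fold change, 13 were higher at an unadjusted p under 0.05, beside 1.37% of all genes, and none lower, and 12 were at least 2-fold higher with no overlap, beside 1.22% of all genes. The median was 0.71, against -0.05 over all genes, and without normal-diet fish 1 it was 0.60 with 50 of 52 members still positive, 5 of them higher at an unadjusted p under 0.05, beside 0.933% of all genes, and 7 at least 2-fold higher, beside 2.05% of all genes. Summed over the list, the high-fat libraries held 17785 and 17912 normalized counts and the normal-diet libraries 9792, 11370 and 12950. Both high-fat libraries lay above all 3 normal-diet libraries, and the median kept its sign in every alternative, between 0.50 and 0.81.

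Among single replication genes, rrm2 (ENSDARG00000020711, GRCz11 chromosome 20, 29492469-29499426), which encodes the small subunit of ribonucleotide reductase, the maker of DNA building blocks, had 616 and 1181 normalized counts on the high-fat diet, against 138, 214 and 448 on the normal diet. The groups did not overlap, with high-fat fish 4 well above fish 2, and the log2 fold change was 1.85 ± 0.48 (SE), or 1.46 ± 0.42 without normal-diet fish 1. The ligase that joins lagging-strand fragments, lig1, had 417 and 482 on the high-fat diet, against 99.3, 181 and 232 on the normal diet. Here too every high-fat value lay above every normal-diet value (log2 fold change 1.47 ± 0.45, and 1.13 ± 0.41 without normal-diet fish 1). pcna, the sliding clamp that holds DNA polymerases on their template, had 2463 and 2323 on the high-fat diet, against 946, 1126 and 1395 on the normal diet. Its high-fat libraries lay close together and above all 3 others (log2 fold change 1.07 ± 0.42, and 0.93 ± 0.45 without fish 1). pole2, a subunit of the leading-strand polymerase, had 222 and 185 in high-fat larvae and 105, 92.3 and 100 in normal-diet larvae. The 3 normal-diet values lay close together, and the log2 fold change was 1.03 ± 0.31 with and 1.07 ± 0.33 without fish 1. gins4, also in the list, had a log2 fold change of 1.63 with all libraries. The helicase genes mcm7 and mcm4 were nearer to even. mcm7 had 2258 and 1480 on the high-fat diet, against 875, 1931 and 1215 on the normal diet, and mcm4 had 402 and 497, against 358, 300 and 441; in both the groups overlapped.

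Genes of mitosis showed the same direction. Of 55 tested members, 51 were higher on the high-fat diet, 10 at an unadjusted p under 0.05, beside 1.37% of all genes, and 5 were 2-fold apart, beside 1.22%, with a median of 0.68. Without normal-diet fish 1, 52 were higher, 6 and 4 met those conditions, beside 0.933% and 2.05% of all genes, and the median was 0.53. The list summed to 8202 and 9714 normalized counts in the high-fat libraries and to 4767, 5266 and 7115 in the normal-diet libraries, with no overlap. The median lay between 0.45 and 0.85 in every alternative. aurkb (ENSDARG00000037640, GRCz11 chromosome 14, 240487-246342), the Aurora B kinase that corrects chromosome attachment, had 203 and 206 normalized counts on the high-fat diet, against 92.3, 86.3 and 111 on the normal diet. Its mean was 204 ± 2.06 (SD, n = 2) in high-fat larvae and 96.6 ± 13.1 (SD, n = 3) in normal-diet larvae, and the log2 fold change of 1.08 ± 0.30 was 1.05 ± 0.31 without fish 1. The spindle checkpoint gene bub1ba had 75.2 and 78.5 on the high-fat diet, against 30.8, 35.7 and 28.7 on the normal diet, a log2 fold change of 1.26 ± 0.39, and 1.24 ± 0.44 without fish 1. kif20ba, a mitotic kinesin motor, had 95.6 and 159 on the high-fat diet, against 34.3, 27.5 and 63.3 on the normal diet, and knstrn, a kinetochore protein, had 51.0 and 113, against 12.3, 26.8 and 22.8. Both were non-overlapping, with log2 fold changes of 1.63 ± 0.45 for kif20ba and 1.90 ± 0.56 for knstrn, and 1.54 ± 0.50 and 1.58 ± 0.55 without fish 1. The proliferation marker mki67 overlapped, with 710 and 1159 on the high-fat diet and 323, 419 and 827 on the normal diet. The list of Myc, G1 cyclin and E2F genes, which act before replication starts, did not share this: 14 of 32 were higher, with a median of -0.03 (0.31 after quantile normalization), and 17 of 32 with 0.13 without normal-diet fish 1.

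**Figure D2:**
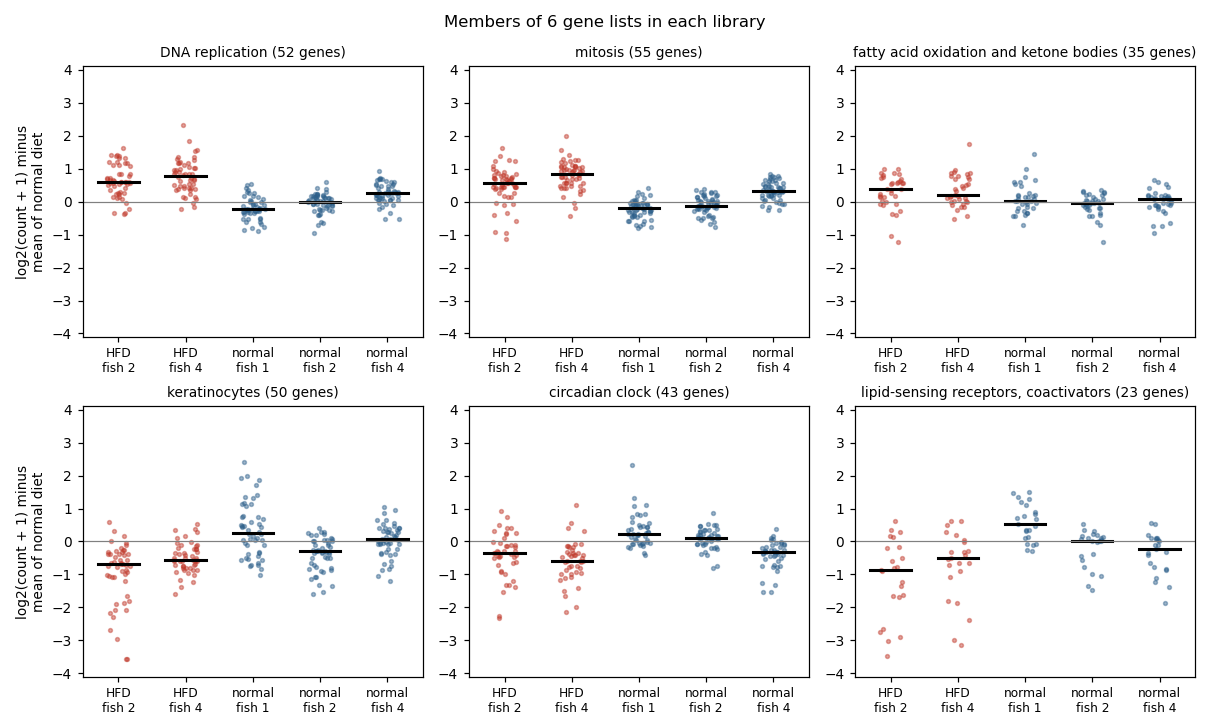
Each point is 1 tested gene of a list in 1 library, as log2(normalized count + 1) minus the gene's mean over the normal-diet libraries; high-fat libraries are red, normal-diet libraries blue, and black bars are library medians. In the replication and mitosis panels both high-fat medians lie above all 3 normal-diet medians, and in the keratinocyte and receptor panels they are the lower ones.

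Fatty acid oxidation genes were moderately higher in high-fat larvae. Of 35 tested members of the oxidation and ketone body list, 27 were higher, 6 of them at an unadjusted p under 0.05, beside 1.37% of all genes, and none lower at that level, and none was 2-fold apart. The median was 0.35, and 0.41 without normal-diet fish 1, where 5 members were higher at that level, beside 0.933% of all genes, and 3 were 2-fold apart, beside 2.05%. It was 0.20 without high-fat fish 2. Transport into the mitochondrion was represented by slc25a20, the carnitine-acylcarnitine carrier of the inner membrane, with 645 and 658 normalized counts on the high-fat diet, against 424, 320 and 408 on the normal diet. The high-fat values lay close to each other and above all normal-diet values (log2 fold change 0.77 ± 0.24, and 0.85 ± 0.24 without fish 1). cpt1b, the muscle form of the carnitine palmitoyltransferase that commits fatty acids to oxidation, had 201 and 210 on the high-fat diet, against 358, 80.4 and 78.4 on the normal diet. Only normal-diet fish 1 exceeded the high-fat libraries, so the log2 fold change was 0.64 ± 0.63 with it and 1.36 ± 0.36 without it. The paralogs cpt1aa and cpt1ab overlapped, with 467 and 613 in high-fat larvae against 308, 516 and 466 in normal-diet larvae for cpt1aa, and 1007 and 490 against 1097, 532 and 283 for cpt1ab.

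Within the beta-oxidation cycle, some enzymes separated the diets and others did not. acads (ENSDARG00000030781, GRCz11 chromosome 10, 43999263-44017665), the short-chain acyl-CoA dehydrogenase, had 404 and 339 normalized counts on the high-fat diet, against 191, 196 and 218 on the normal diet. The log2 fold change was 0.88 ± 0.26, or 0.84 ± 0.27 without normal-diet fish 1. The 2 genes for the alpha subunit of the mitochondrial trifunctional protein, which carries out the later steps for long chains, had 315 and 351 on the high-fat diet, against 189, 162 and 227 on the normal diet (hadhaa), and 677 and 704, against 306, 401 and 435 (hadhab). Neither overlapped, with log2 fold changes of 0.80 ± 0.26 for hadhaa and 0.87 ± 0.32 for hadhab, and 0.79 ± 0.28 and 0.72 ± 0.32 without fish 1. eci1, the isomerase needed for unsaturated chains, had 213 and 211 on the high-fat diet, against 95.8, 124 and 132 on the normal diet, with a log2 fold change of 0.86 ± 0.30, and 0.73 ± 0.30 without fish 1. In contrast acadvl, the very-long-chain dehydrogenase, had 836 and 966 on the high-fat diet, against 1187, 956 and 945 on the normal diet, and the electron acceptor gene etfa had 1190 and 1390, against 1413, 1247 and 1176. The groups overlapped in both genes.

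Other mitochondrial genes differed less. Of 74 tested mitochondrial ribosomal protein genes, 66 had higher values in high-fat larvae, with a median of 0.28, and 58 with 0.18 without normal-diet fish 1. The 100 tested nuclear genes of oxidative phosphorylation had a median of 0.09 (63 higher), and 0.07 without fish 1, and the 82 cytosolic ribosomal protein genes 0.03 and 0.01. Mitochondrially encoded transcripts took 14.0% and 10.8% of reads in high-fat larvae, against 17.8%, 10.1% and 7.74% in normal-diet larvae. Over the 13 transcripts the median was 0.14 with 10 higher, and 0.64 with all 13 higher without normal-diet fish 1. mt-nd6, the complex I subunit encoded on the opposite strand from the rest, had 70287 and 50183 on the high-fat diet against 38828, 31675 and 32604 on the normal diet (log2 fold change 0.80 ± 0.30, and 0.89 ± 0.31 without fish 1).

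The genes of fat absorption split the normal-diet group rather than the diets. cd36 itself (ENSDARG00000032639; chromosome 4 of GRCz11, bases 22658472-22671469) had 607 and 448 normalized counts on the high-fat diet, against 3215, 172 and 223 on the normal diet. The high-fat libraries were above normal-diet fish 2 and fish 4 and far below fish 1. Its log2 fold change was 0.06 ± 1.05, and 1.41 ± 0.30 without fish 1. It was -1.22 in edgeR and -1.18 in DESeq2, which weigh the mean rather than the log mean. The sources used here do not say if transgene reads enter the cd36 count. The structural apolipoprotein gene apoa1a had 2531 and 2694 on the high-fat diet, against 10819, 231 and 1031 on the normal diet. For apobb.1, which encodes the apolipoprotein B of lipoprotein particles, the values were 1039 and 1464 on the high-fat diet and 11301, 127 and 627 on the normal diet. fabp2, the intestinal fatty acid binding protein, had 748 and 1128, against 6507, 80.4 and 435. In each of these normal-diet fish 1 was the highest of the 5 libraries and normal-diet fish 2 the lowest, and the high-fat pair lay between.

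Over the absorption list, 17 of 26 tested members had higher values in high-fat larvae when all libraries were used, with a median of 0.29 that turned to -0.86 in edgeR, -0.82 in DESeq2, -0.73 once normal-diet fish 2 was left out and -0.18 once normal-diet fish 4 was. None was past an unadjusted p of 0.05 and none was 2-fold apart. Without normal-diet fish 1, 21 of 26 were higher with a median of 1.21, 12 were higher at an unadjusted p under 0.05, beside 0.933% of all genes, and 14 were at least 2-fold higher, beside 2.05%. Several of those had the same order of libraries. apoa4b.1 had 450 and 578 normalized counts on the high-fat diet, against 5105, 77.4 and 218 on the normal diet, and mttp, which loads lipid onto apolipoprotein B, had 49.7 and 88.9, against 453, 9.68 and 32.0. Their log2 fold changes were 0.20 ± 1.4 and 0.31 ± 1.33 with fish 1, against 1.96 ± 0.46 and 1.85 ± 0.78 without it. The list of apolipoproteins and lipoprotein assembly, which shares members with it, had 17 of 23 higher and a median of 0.32 (-0.49 in edgeR, -0.46 in DESeq2 and -0.53 without normal-diet fish 2), and 19 of 23 with a median of 1.02 without fish 1.

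General markers of the intestinal lining followed the same order of libraries. The intestinal epithelium list summed to 12295 and 9020 normalized counts in high-fat larvae, against 52658, 4120 and 8495 in normal-diet larvae, and its median was -0.23 (11 of 24 higher) with all libraries and 1.01 (19 of 24 higher) without fish 1. Without fish 1, 8 of the 24 were higher at an unadjusted p under 0.05 in limma, beside 0.933% of all genes. By the 2-fold description 10 were higher, beside 2.05%, so the rise was not particular to the absorption list. The absorption list summed to 8078 and 9807, against 47723, 2426 and 4779. vil1, a structural protein of the enterocyte brush border, had 386 and 487 on the high-fat diet, against 2052, 188 and 363 on the normal diet. The brush border peptidase genes enpep and dpp4 were nearer to normal-diet fish 2 and fish 4. For enpep the values were 335 and 223 in high-fat larvae, against 789, 202 and 428 in normal-diet larvae. For dpp4 they were 85.4 and 55.8, against 373, 66.2 and 101. With fish 1 left out, the high-fat libraries did not overlap the other 2 for vil1, fabp2 and apoa1a, and overlapped them for enpep and dpp4. In RNA of whole larvae, a different number of intestinal cells and a different amount of RNA per cell cannot be told apart. The part of gut content in the absorption values was not tested.

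**Figure D3:**
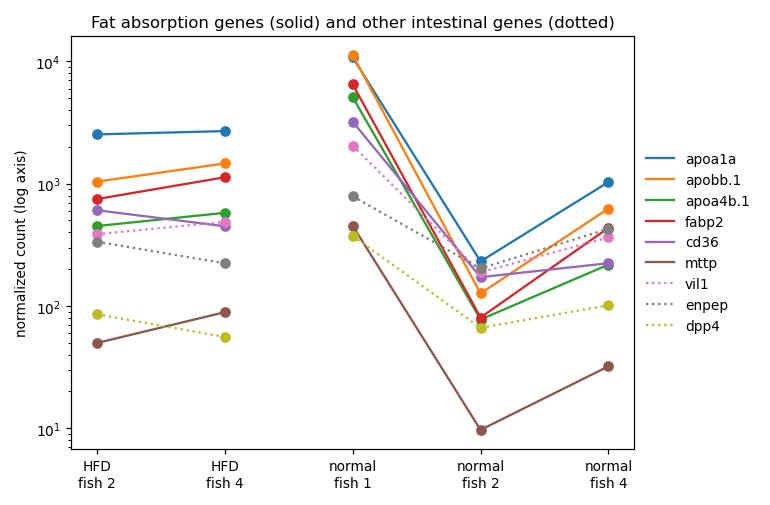
Normalized counts (log axis) of 6 fat absorption genes (solid lines) and 3 other intestinal genes (dotted lines) in the 2 high-fat and 3 normal-diet libraries; lines join the values of 1 gene within a group and carry no order. Normal-diet fish 1 is the highest library for all 9 genes, and normal-diet fish 2 the lowest for all but dpp4; cd36 has 607 and 448 on the high-fat diet against 3215, 172 and 223.

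With all libraries, 1 of the 23 apolipoprotein and lipoprotein assembly genes was 2-fold higher, beside 1.22% of all genes. Another 1 was 2-fold lower, beside 6.06%. apoba, a second apolipoprotein B gene, had 125 and 162 normalized counts on the high-fat diet, against 110, 35.7 and 43.0 on the normal diet. The high-fat values were the higher ones, with a log2 fold change of 1.35 ± 0.52, and 1.83 ± 0.41 without normal-diet fish 1. pltp, which moves phospholipid between lipoproteins in the plasma, had 80.3 and 114 on the high-fat diet, against 330, 229 and 191 on the normal diet. It was lower in both high-fat libraries, with log2 fold changes of -1.34 ± 0.35 and -1.12 ± 0.35. apoeb, an abundant apolipoprotein E gene, differed little, with 6983 and 7071 on the high-fat diet against 10836, 8187 and 8854 on the normal diet.

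Downstream of absorption, lpl, the lipase that frees fatty acids from circulating lipoproteins, had 686 and 787 normalized counts on the high-fat diet, against 3326, 1342 and 1265 on the normal diet. Both high-fat values were below all normal-diet values, with a log2 fold change of -1.28 ± 0.43, and -0.83 ± 0.27 without normal-diet fish 1. Lipid storage and lipolysis genes had a median of -0.35 (11 of 26 higher; 0.02 in TPM) with all libraries and -0.03 (12 of 26 higher) without fish 1. The storage list leaned on that library for plin2, which coats lipid droplets and had 6.38 and 6.20 on the high-fat diet, against 479, 12.7 and 8.43 on the normal diet. De novo lipogenesis stayed near even, with medians of -0.07 with all libraries and -0.12 without fish 1 over 29 genes (0.02 in TPM), and so did cholesterol synthesis, with 0.09 and 0.18 over 28 (-0.00 in TPM). fasn, the fatty acid synthase, had 1896 and 1968 on the high-fat diet, against 1991, 2478 and 2089 on the normal diet, so the groups nearly met. Its regulator srebf1 had 75.2 and 83.7, against 195, 126 and 125, with a log2 fold change of -0.86 ± 0.33, and -0.65 ± 0.32 without fish 1.

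Receptors and coactivators that sense lipids were mostly lower on the high-fat diet. Of 23 tested members 18 were lower, 5 at an unadjusted p under 0.05, beside 4.67% of all genes, and 3 at least 2-fold lower without overlap, beside 6.06%. The median was -0.73, and without normal-diet fish 1 it was -0.56 with 19 of 23 lower, 2 at an unadjusted p under 0.05, beside 2.65% of all genes, and 3 at least 2-fold lower, beside 5.67%. It stayed between -0.86 and -0.38 in every alternative. ppargc1a (ENSDARG00000067829, GRCz11 chromosome 7, 70578985-70665965) encodes PGC-1 alpha, which drives mitochondrial and oxidation genes in mammals. It had 10.2 and 24.8 normalized counts on the high-fat diet, against 112, 129 and 48.9 on the normal diet, with no overlap (log2 fold change -2.41 ± 0.56, and -2.24 ± 0.63 without fish 1). ppargc1b, its relative, had 810 and 845, against 1744, 1381 and 1082, a log2 fold change of -0.73 ± 0.28, and -0.56 ± 0.26 without fish 1. hnf4a, a nuclear receptor of liver and gut, had 2.55 and 4.13 on the high-fat diet, against 36.9, 17.1 and 26.1 on the normal diet. The high-fat counts for hnf4a stand on few reads (log2 fold change -2.63 ± 0.66, and -2.38 ± 0.76 without fish 1), and its paralog hnf4b did not share the direction, with 53.6 and 49.6, against 74.7, 33.5 and 32.9. pparaa, the PPAR alpha gene with the higher counts, overlapped, with 286 and 164 on the high-fat diet and 244, 296 and 239 on the normal diet. nr1h3, the liver X receptor, was even, at 987 and 904, against 723, 910 and 1007. This list holds many genes of low level, where the whole comparison ran lower.

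Liver lists depended on single libraries of both diets. Hepatocyte plasma protein genes had a median of 0.29 (23 of 36 higher), and 0.61 (30 of 36) without normal-diet fish 1, but -0.43 without normal-diet fish 2 and -0.30 without high-fat fish 4. The list summed to 14862 and 22389 normalized counts in high-fat larvae, against 28278, 7048 and 22090 in normal-diet larvae. Complement and acute phase genes had a median of 0.71 (20 of 29 higher, 2 of them 2-fold apart, beside 1.22% of all genes), and 0.82 without fish 1 (7 of them 2-fold apart, beside 2.05%). That median was 0.14 without normal-diet fish 2, 0.30 without high-fat fish 4, 0.27 in TPM, 0.40 in edgeR and 0.43 in DESeq2. The component c9, part of the membrane attack complex, showed the order, with 264 and 415 on the high-fat diet, against 303, 67.0 and 279 on the normal diet. cfhl2, a factor H-like regulator of complement, did not overlap between diets, with 33.2 and 61.0 on the high-fat diet, against 8.79, 4.47 and 15.2 on the normal diet, and a log2 fold change of 2.27 ± 0.68, and 2.29 ± 0.76 without fish 1. Exocrine pancreas enzymes spread more widely within a diet than between diets. They summed to 5331 and 14451 in high-fat larvae, against 31384, 2435 and 28588 in normal-diet larvae. Genes of liver tumours and fibrosis, which the series' title makes of interest, had medians of -0.15 with all libraries and -0.09 without fish 1, with 10 and 12 of 31 higher. ctnnb1, which encodes beta-catenin, had 7148 and 6854 on the high-fat diet, against 5204, 8115 and 6883 on the normal diet, so the groups overlapped.

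Circadian clock genes were lower on the high-fat diet in most members. Of 43 tested, 35 were lower, 8 at an unadjusted p under 0.05, beside 4.67% of all genes, and 7 were 2-fold apart, beside 6.06%, with a median of -0.46. Without normal-diet fish 1, 33 were lower, 5 and 6 met those conditions, beside 2.65% and 5.67% of all genes, and the median was -0.32; over every alternative it lay between -0.62 and -0.32. The output factors of the PAR bZIP family led the list. dbpa (ENSDARG00000063014, GRCz11 chromosome 19, 10177115-10196370) had 195 and 250 normalized counts on the high-fat diet, against 540, 717 and 466 on the normal diet. It averaged 223 ± 38.9 (SD, n = 2) in high-fat larvae and 574 ± 129 (SD, n = 3) in normal-diet larvae, and its log2 fold change of -1.35 ± 0.28 was -1.38 ± 0.31 without fish 1. hlfa, of the same family, had 329 and 270, against 973, 802 and 559 (log2 fold change -1.35 ± 0.32, and -1.17 ± 0.32 without fish 1). tefb had 305 and 193 on the high-fat diet, against 1349, 1074 and 305 on the normal diet, so high-fat fish 2 and normal-diet fish 4 nearly met. In the core loop, the repressor cry2 had 650 and 654 on the high-fat diet, against 1520, 1372 and 1044 on the normal diet (log2 fold change -0.99 ± 0.26, and -0.87 ± 0.27 without fish 1). arntl1a, which encodes the activator Bmal1, ran the other way, with 909 and 700, against 503, 543 and 395 (log2 fold change 0.74 ± 0.25, and 0.78 ± 0.26 without fish 1). Among period and Rev-erb genes, per2 had 4976 and 4268 on the high-fat diet, against 6604, 5811 and 4198 on the normal diet, and nr1d1 had 4196 and 3250, against 5204, 3987 and 4344. nfil3-6, a repressor that competes with the PAR bZIP factors, had 228 and 249, against 5556, 634 and 385, and its log2 fold change was -2.21 ± 0.92 with normal-diet fish 1 and -1.05 ± 0.31 without it. The labels do not give the hour at which each library was taken, and its part was not tested.

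Genes induced by glucocorticoids and fasting were lower too, and by much less once normal-diet fish 1 was left out. With all libraries 35 of 39 were lower, 6 at an unadjusted p under 0.05, beside 4.67% of all genes, and 9 were 2-fold apart, beside 6.06%, with a median of -0.83. Without that fish 31 of 39 were lower, 3 and 4 met those conditions, beside 2.65% and 5.67% of all genes, and the median was -0.28. Classic targets followed fish 1 alone: fkbp5 had 236 and 70.27 normalized counts on the high-fat diet, against 8358, 72.9 and 163 on the normal diet, and pck1, the gatekeeper of gluconeogenesis, had 233 and 128, against 12794, 102 and 75.9. Others separated the diets without it. foxo3b, a forkhead factor held back by insulin signalling, had 430 and 414 on the high-fat diet, against 1525, 938 and 582 on the normal diet (log2 fold change -1.15 ± 0.37, and -0.81 ± 0.28 without fish 1). sesn1, an inhibitor of the growth kinase mTORC1, had 352 and 303, against 1301, 754 and 503, with log2 fold changes of -1.27 ± 0.47 and -0.91 ± 0.43. pdk3b, a kinase that shuts off pyruvate dehydrogenase, had 2.55 and 4.13, against 22.8, 20.1 and 16.0, on few reads.

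Of the growth hormone and IGF axis, 21 of 28 members were lower, with a median of -0.61, and -0.24 without normal-diet fish 1. At an unadjusted p under 0.05 in limma 2 were lower, beside 4.67% of all genes, and 3 were 2-fold lower, beside 6.06%. Without fish 1 each condition was met by 1 of 28, beside 2.65% and 5.67% of all genes. socs2 (ENSDARG00000045557, GRCz11 chromosome 4, 18432182-18436899), a feedback inhibitor that growth hormone signalling induces in mammals, had 7.65 and 5.17 normalized counts on the high-fat diet, against 81.7, 30.5 and 38.0 on the normal diet. Every normal-diet library lay far above both high-fat ones, and the log2 fold change was -2.68 ± 0.58, or -2.26 ± 0.59 without fish 1. irs2a, an adaptor of the insulin receptor, had 324 and 287 on the high-fat diet, against 1272, 697 and 392.2 on the normal diet (log2 fold change -1.2 ± 0.47, and -0.78 ± 0.38). The hormone gene igf1 overlapped, with 28.1 and 38.2, against 13.2, 46.9 and 23.6.

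**Figure D4:**
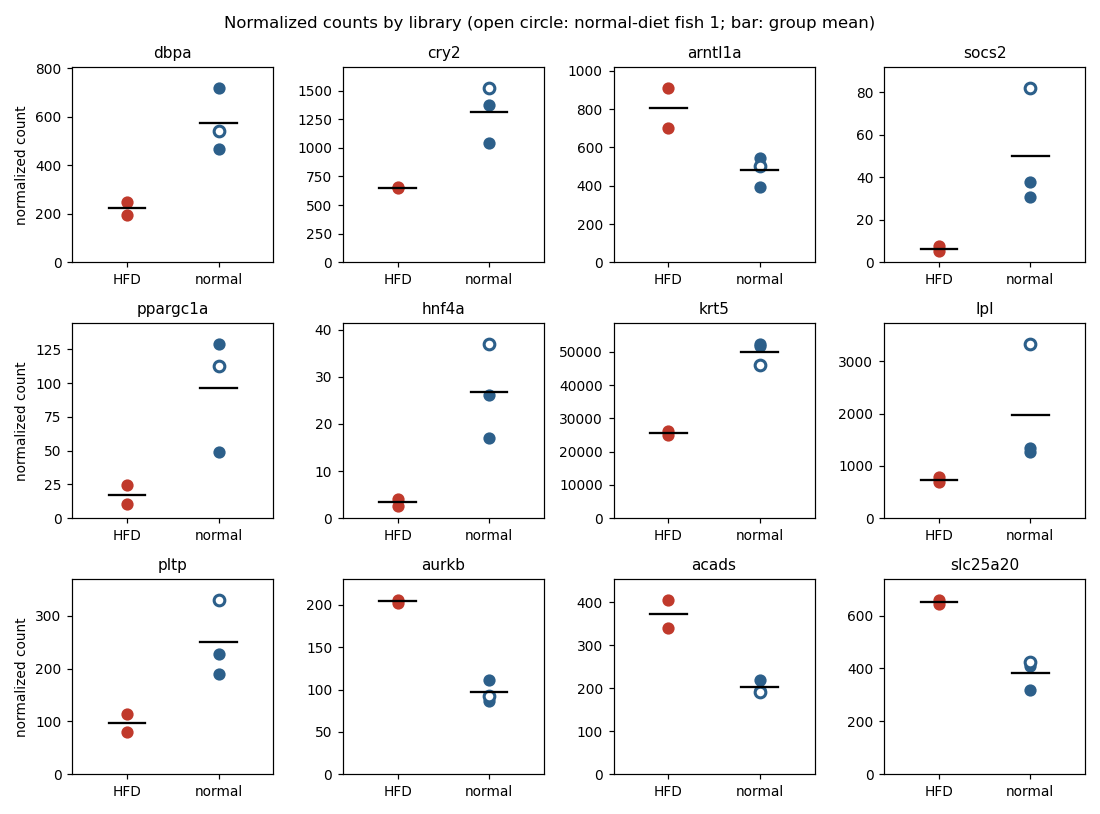
Normalized counts of 12 genes in the high-fat libraries (red, left in each panel) and the normal-diet libraries (blue, right), with an open circle for normal-diet fish 1 and a bar at each group mean; every axis starts at 0. In all 12 panels the groups do not overlap, with 8 genes lower and 4 higher on the high-fat diet. Each gene is among the 4 of smallest p in a list. The lack of overlap and the split by direction therefore follow from the choice and describe only these genes.

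Keratinocyte genes of the skin were lower in nearly every member. Of 50 tested, 49 were lower on the high-fat diet with a median of -0.61, and 46 with -0.56 without normal-diet fish 1. At an unadjusted p under 0.05, 6 were lower with all libraries, beside 4.67% of all genes, and 8 without fish 1, beside 2.65%. Both ways 3 of 50 were 2-fold lower, a share near the 6.06% and 5.67% of all genes. The median lay between -0.76 and -0.55 in every alternative, and the list summed to 169651 and 159854 normalized counts in high-fat larvae, against 233075, 273010 and 287210 in normal-diet larvae. krt5 (ENSDARG00000058371, GRCz11 chromosome 23, 10173196-10177458), a keratin of the basal epidermis, had 25021 and 26099 on the high-fat diet, against 46085, 51846 and 52250 on the normal diet. Both groups were tight, and the level was 0.511 times the normal-diet level (log2 fold change -0.97 ± 0.26, and -1.03 ± 0.26 without fish 1). krt4, a keratin of the outer layer, had 9904 and 11583 on the high-fat diet, against 17466, 12680 and 17386 on the normal diet. agr1, a secretory-pathway protein disulfide isomerase relative, had 33.2 and 77.5, against 194, 112 and 135, with a log2 fold change of -1.48 ± 0.48, and -1.26 ± 0.52 without fish 1. tp63, the epidermal stem cell factor, overlapped, with 181 and 260, against 466, 234 and 344.

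Other tissues were closer to even. Skeletal muscle genes had a median of -0.38 (12 of 57 higher), and -0.31 without normal-diet fish 1, but 0.13 without high-fat fish 2, which held 838183 normalized counts over the list, against 1751260 in high-fat fish 4. Neuronal genes had a median of 0.10 with all libraries and -0.02 without fish 1 over 43 genes. Single members went both ways: gap43, a growth cone protein, had 3306 and 2856 on the high-fat diet, against 1374, 1918 and 2252 on the normal diet, while slc17a7a, a vesicular glutamate transporter, had 30.6 and 25.8, against 73.8, 61.0 and 91.9. Neither overlapped, and the log2 fold change of slc17a7a was -1.38 with and without fish 1. Its relative slc17a6a had 24.2 and 16.5, against 133, 154 and 36.3 (log2 fold change -2.13 ± 0.65, and -1.85 ± 0.70 without fish 1). Glia and myelin (0.06 with all libraries, 0.00 without fish 1), collagens (-0.03 and -0.10, with 0.04 in TPM and 0.02 after quantile normalization) and photoreceptor genes (-0.19 and -0.15) lay near the median of all genes. Neutrophil and macrophage genes had medians of -0.19 (0.08 after quantile normalization) and -0.10; csf1ra, a receptor of macrophages and pigment cells, had 8.93 and 4.13 on the high-fat diet, against 51.8, 29.0 and 20.2 on the normal diet (log2 fold change -2.18 ± 0.69, and -1.82 ± 0.76 without fish 1).

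Several large list differences lay mostly with normal-diet fish 1, though most immediate early genes stayed lower without it. Lens crystallins had a median of -2.04 with 60 of 61 members lower on the high-fat diet, and -0.07 with 33 of 61 lower once that library was left out. They summed to 13733 and 37812 normalized counts in high-fat larvae, against 1680220, 18126 and 31972 in normal-diet larvae. Immediate early genes, the fast transcriptional response to stimulation, had a median of -1.38 (41 of 44 lower, 12 of them 2-fold apart, beside 6.06% of all genes) and -0.17 (35 of 44, 1 of them 2-fold apart, beside 5.67%) without it. Inflammation genes had -0.53 and 0.00, heat shock genes -0.45 and -0.09, and xenobiotic enzymes -0.43 and 0.00. The stress genes atf3, with 88.0 and 119 on the high-fat diet against 3165, 75.2 and 82.7 on the normal diet, and hsp70.3, with 12.8 and 65.1 against 5579, 9.68 and 35.4, had the same order. Over the 49 lists, 9 medians moved by over 0.5 when fish 1 was left out and 14 changed sign, while 20 kept 1 sign under every alternative tried. In 17 lists the median lay within 0.25 of 0 both ways, among them glycolysis, with 0.05 with all libraries and 0.02 without fish 1, and the proteasome, with -0.13 and -0.19. How far the state of that fish reaches into other lists was not tested.

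**Figure D5:**
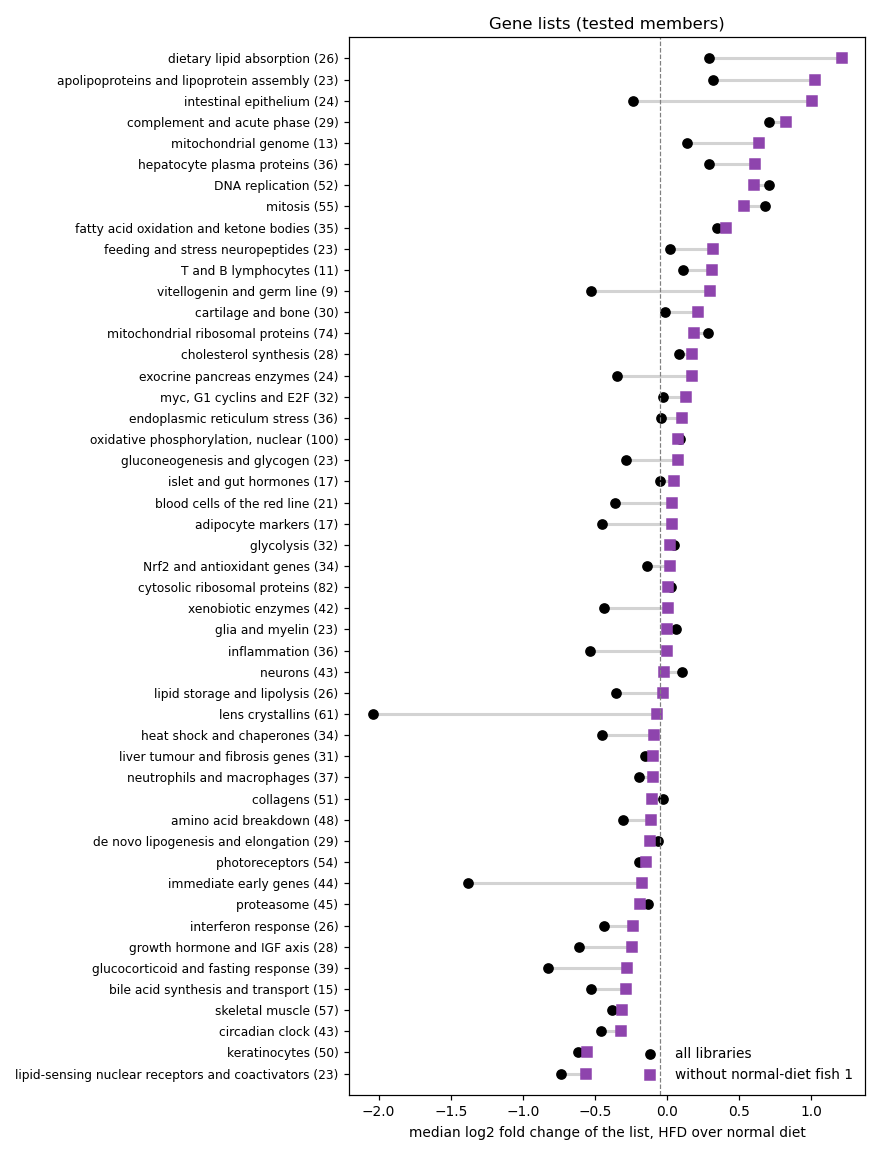
Median log2 fold change, high-fat over normal diet, of the tested members of 49 gene lists, with all libraries (black circles) and without normal-diet fish 1 (purple squares), ordered by the squares; numbers in brackets are tested genes and the dashed line is the median of all genes (-0.05). Replication and mitosis stay at 0.53 or above and keratinocytes and lipid-sensing receptors at -0.56 or below both ways, while lens crystallins and immediate early genes close up on 0.

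The single differences that held with and without normal-diet fish 1 came to 344 of the 20906 genes tested, 38 higher and 306 lower. These were 2-fold apart as above, with a mean of at least 50 normalized counts in either group. List members were included, and genes with no symbol, or with a clone, locus or accession-like one, were left out. Of the 10 with the smallest p on the higher side, 6 belonged to the replication and mitosis lists. The rest were knstrn, sord, wdr73 and the microRNA gene dre-mir-181b-3. sord, the sorbitol dehydrogenase that makes fructose, had 423 and 285 on the high-fat diet, against 195, 162 and 139 on the normal diet, with a log2 fold change of 1.08 ± 0.31 and 1.2 ± 0.32 without fish 1. The dre-mir-181b-3 locus had 236 and 210, against 59.8, 88.6 and 136, and wdr73, a WD-repeat protein of microtubules, had 116 and 101, against 46.6, 41.7 and 65.8. On the lower side, bcl11ab, a zinc finger repressor, had 11.5 and 18.6 on the high-fat diet, against 81.7, 75.2 and 64.9 on the normal diet. No other gene had a smaller p in limma, and its log2 fold change was -2.25 ± 0.41 (adjusted p = 0.785), and -2.18 ± 0.47 without fish 1. Other lower genes were also separated, which the choice required. snx27a, a sorting nexin of endosomes, had 31.9 and 30.0, against 166, 106 and 80.1, napbb, a cofactor of SNARE disassembly, had 11.5 and 12.4, against 65.9, 76.7 and 33.7, and dennd4a, an activator of Rab proteins, had 117 and 105, against 323, 357 and 215. The nuclear receptor coactivator ncoa1 had 31.9 and 56.8 on the high-fat diet, against 140, 180 and 103 on the normal diet, and ppp2r5ca, a regulatory subunit of the phosphatase PP2A, had 39.5 and 52.7, against 164, 153 and 114. slc7a3b, a carrier of cationic amino acids, had 96.9 and 153, against 446, 295 and 283, and thsd7aa, a thrombospondin-repeat protein, had 28.1 and 49.6, against 109, 149 and 110. With dbpa and socs2 these are the 10 lower genes with the smallest p among the 306. The conditions for these already asked for no overlap and a 2-fold difference with and without fish 1. Their log2 fold changes lay between -1.35 (dbpa) and -2.68 (socs2), and between -1.24 (slc7a3b) and -2.26 (socs2) without fish 1.

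The authors' deposited table of this comparison lists 60 genes with an adjusted p under 0.05, 14 higher and 46 lower on the high-fat diet, out of 21375 genes that have one. Of these 60, 31 were under 10 normalized counts in all 5 libraries, and 25 met the level asked for here (10 in at least 2 libraries). In 13 of the 25, normal-diet fish 1 was over 5 times the next highest library, and in 15 the groups did not overlap and stayed at least 2-fold apart without it. These counts share genes. Examples of the first kind in the authors' deposited table are klf9, a hormone-induced factor, with a log2 fold change of -5.0 there and 10.2 and 12.4 normalized counts on the high-fat diet, against 1025, 43.2 and 16.9 on the normal diet, and hsp70.1, with -6.32 there and 14.0 and 18.6, against 3865, 14.1 and 27.8. Unlike hsp70.1, klf9 was lower in both high-fat libraries than in normal-diet fish 2 and fish 4 as well. Examples of the second kind are scamp1, a carrier protein of secretory membranes, with -1.98 in the authors' deposited table and 15.3 and 25.8, against 85.2, 112 and 48.1, and acvr1bb, an activin receptor gene, with -4.98 there and 2.55 and 0, against 53.6, 38.7 and 18.6. The interferon-induced gene ifit8 has a log2 fold change of -20.4 in the authors' deposited table and is listed at 0 in 4 of the 5 libraries, with 96.7 in normal-diet fish 1. The authors also deposited lists of genes at least 4-fold apart, with 732 up and 2178 down. Of the 732, 625 were under 10 in all 5 libraries and 34 met the level asked for here. Of these 34, 15 were at least 4-fold higher in limma without fish 1. Of the 2178, 756 met that level. In limma without fish 1, 203 of these 756 were at least 4-fold lower and 122 were higher. The deposited lists rest on the authors' own fold changes, so these counts change the measure and the libraries at once. The part of fish 1 alone was not tested.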

How the data were processed

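Whole CD36-transgenic larvae were sequenced as 7 libraries, per the labels' protocols after NucleoSpin RNA extraction and TruSeq Stranded mRNA preparation. The submitters' processing notes name DESeq2, FastQC, HISAT2 and Trimmomatic, none with a version, and the deposited abundance tables carry the build GRCz11. The counting program and its use of strand were not stated by any source at hand, so overlapping and near-identical genes may share reads. The main values are the authors' deposited normalized counts per gene, a signal equal to reads divided by a factor for each library; 100% of these values came out as whole reads within 0.001, so edgeR and DESeq2 could be run as alternatives. The deposited TPM tables list assembled rows that sum to 1000000 and further reference gene rows that add 739551 to 884988, so TPM was used only as an alternative. The authors' deposited table of the comparison gives log2 fold changes with their errors, and p-values and adjusted p-values. All 7 libraries were mapped to a label, and 0 columns had no sample.

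Genes with at least 10 normalized counts in at least 2 of the 7 libraries were kept (20906), log2(value + 1) was taken, and limma 3.58.1 (trend) in R 4.3.3 was fitted to all 7 libraries with 1 mean per group; fold changes are on this scale and understate those of low genes. The contrast was high-fat over normal diet, with Benjamini-Hochberg adjustment over all genes and a threshold of 0.05. The fit was repeated without normal-diet fish 1. A gene was called 2-fold apart as a description where the group means of log2 values differed by at least 1 and the groups did not overlap. The libraries, the gene lists and the genes named were chosen with earlier results of these data known. The genes named were, in each direction, up to 10 past the threshold, filled with those of smallest unadjusted p among genes with a mean of at least 50 in either group, groups that did not overlap and a 2-fold difference with and without normal-diet fish 1; from each list, up to 4 of smallest p; cd36; and members that show a list's count. Genes with no symbol, or with a clone, locus or accession-like one, were left out of this filling. Other list members were named after their values were seen. Alternatives used edgeR 4.0.16, DESeq2 1.42.0, TMM and quantile normalization, TPM, other pseudocounts and filters, each library left out, and the fish number as a block. The linear models were tested on simulated data with 1 setting of the spread for all genes and no library that stood apart. That test does not cover a library such as normal-diet fish 1.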

Additional observations from a re-analysis of the deposited data

How the results depend on the processing

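No setting gave a gene with an adjusted p under 0.05, where DESeq2 was counted only over the 20906 genes of the main test. Genes higher at an unadjusted p under 0.05 numbered 120 in TPM, against 287, and between 62 and 354 with 1 library left out. Genes lower numbered 616 with a filter of 50, 537 after quantile normalization and 482 in TPM, against 976, and between 527 and 1478 with 1 library left out. Without normal-diet fish 1, edgeR gave 553 and DESeq2 633 lower genes. A fit to the 5 libraries alone, with no CACF library, gave 335 higher and 823 lower genes at an unadjusted p under 0.05. Genes at least 2-fold higher without overlap numbered 89 with a pseudocount of 10, 495 with no filter, 101 with a filter of 50, 527 after quantile normalization and 69 in TPM, against 255, between 255 and 822 with 1 library left out, and 452 in edgeR and 460 in DESeq2 without normal-diet fish 1. Genes 2-fold lower numbered 681, 621, 720 and 283 with that pseudocount, that filter, quantile normalization and TPM, against 1266, and between 1186 and 2980 with 1 library left out. The cause was not tested beyond fewer genes or samples entering some settings. Of 57 single genes, those of fat absorption turned sign. cd36 was -1.22 in edgeR, -1.18 in DESeq2 and between -0.70 and 1.41 with 1 library left out; apoa4b.1 was -1.84, -1.80 and between -1.05 and 1.96; apoa1a was -0.65, -0.62 and between -0.36 and 2.41; fabp2 was -1.35, -1.31 and between -0.87 and 2.29; and mttp was -1.27, -1.24 and between -0.86 and 1.85, with -0.15 in TPM. Fish numbers 2 and 4 occur in each group, but the labels do not say that a number marks a shared tank or clutch, and deviations of same-numbered high-fat and normal-diet fish correlated at 0.43 across genes. With the fish number as a replicate block, 339 genes were higher and 1014 lower at an unadjusted p under 0.05. Fish number 1 occurs only in the normal-diet group, so the block takes up that library. The list medians with the block were therefore those without normal-diet fish 1. Reads per library, 12699552 at the least, limit the genes of low count.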
